A study of Mus musculus with 9 samples.

Results

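The genes described here are the 55 of 18956 rows of the count table whose symbol is Gpr followed only by digits. The name was given to G-protein-coupled receptors that had a sequence and no known ligand, the orphan receptors. A receptor of this kind crosses the plasma membrane and, once active, turns on heterotrimeric G proteins that raise or lower cyclic AMP, move calcium or open ion channels. In the brain many of them mark a single circuit or cell type, as Gpr151 and Gpr139 mark the habenula, the small epithalamic nucleus beside the midline thalamus that signals aversive outcomes, and Gpr17 marks oligodendrocyte precursors committed to mature. Orphan is only in part the right word for the 55. By textbook knowledge some of them sense protons, 4 respond to lipids, sterols or metabolites, Gpr1 binds chemerin, and 6 are proteins of the Golgi, lysosome or other membranes that are not typical cell surface receptors, so they are called Gpr genes below.

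RNA was sequenced from tissue labelled as the anterior paraventricular nucleus of the thalamus of BALB/c mice in 9 libraries. The 3 non-stressed saline libraries came from mice without defeat that received saline. The 3 stressed saline libraries came from mice given saline and 5 days of social defeat, which the labels call smSDS, and the 3 SHNK libraries from mice with the same defeat that were treated with (2S,6S)-HNK, a hydroxynorketamine formed when the body breaks down ketamine. All 9 shared the strain and the tissue, and the labels give neither age nor the number of animals in a library, so p-values measure the spread between these libraries, which may be technical. Total counts ran from 32307869 to 51569143 per library. The table lists no gene below a count of 1 in any library, and 18194 genes passed the filter on low counts, all 55 Gpr genes among them. The RefSeq gene annotation lists 70 symbols of this form and 55 of them are in the table. The levels below are thus those of genes counted in every library.

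The libraries differed in composition, and this bears on the results below. Levels are in CPM, counts scaled to a common library size. Of 12 listed habenula genes, none a Gpr gene, 10 are in the table. Their summed level was 57.2 to 115 CPM in non-stressed saline, 190 to 606 CPM in stressed saline and 32.4 to 39.5 CPM in SHNK. With an adjusted p under 0.05, 8 of the 10 rose in stressed saline against non-stressed saline and 9 of the 10 fell in SHNK against stressed saline. Of 10 ependyma genes 8 rose and 7 fell in the same comparisons, with sums of 110 to 128, 198 to 297 and 116 to 175 CPM. Of 11 astrocyte genes 2 rose and then 6 fell, with sums of 4750 to 4950, 4140 to 5370 and 3710 to 4020 CPM. The 9 genes of glutamatergic paraventricular thalamus neurons, among them Slc17a6 and Calb2, were present in every library with sums of 3240 to 3950 CPM. In bulk tissue, the amount of neighbouring tissue taken, the number of cells of a type and the RNA per cell cannot be told apart.

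The Gpr genes covered a wide range of expression. By mean CPM over the 9 libraries 25 were at 10 or more, 23 between 1 and 10 and 7 below 1, and their summed level ran from 958 to 1173 CPM per library. Levels of different genes were compared as CPM per kb of the median annotated transcript length, which 54 of the 55 have (Gpr52, a striatal receptor, has none and ran from 9.15 to 14.8 CPM). The 10 highest were Gpr19 (58.8), Gpr107 (53.5), Gpr137 (51.0), Gpr12 (49.1), Gpr89 (40.0), Gpr151 (39.1), Gpr180 (30.1), Gpr108 (27.6), Gpr153 (27.5) and Gpr85 (20.4 CPM per kb). Of these, Gpr107 and Gpr108 are Golgi membrane proteins, Gpr89 is a Golgi pH regulator and Gpr137 is lysosomal. The order depends on the length used. With the longest transcript in place of the median, Gpr19 went to 19.2, Gpr107 to 5.96 and Gpr89 to 7.20 CPM per kb, Gpr137 (41.1) was the highest, and 8 of the 10 stayed among the first 10. Within the 10 highest, the place of Gpr151 over all 9 libraries depends on stressed saline. Gpr151 was among the 10 highest in each of the other groups too. By group it stood at 23.8 ± 2.66 in non-stressed saline, 75.8 ± 32.8 in stressed saline and 17.6 ± 1.57 CPM per kb in SHNK (SD, n = 3), against 29.6, 29.8 and 31.1 CPM per kb for Gpr180.

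**Figure D1:**
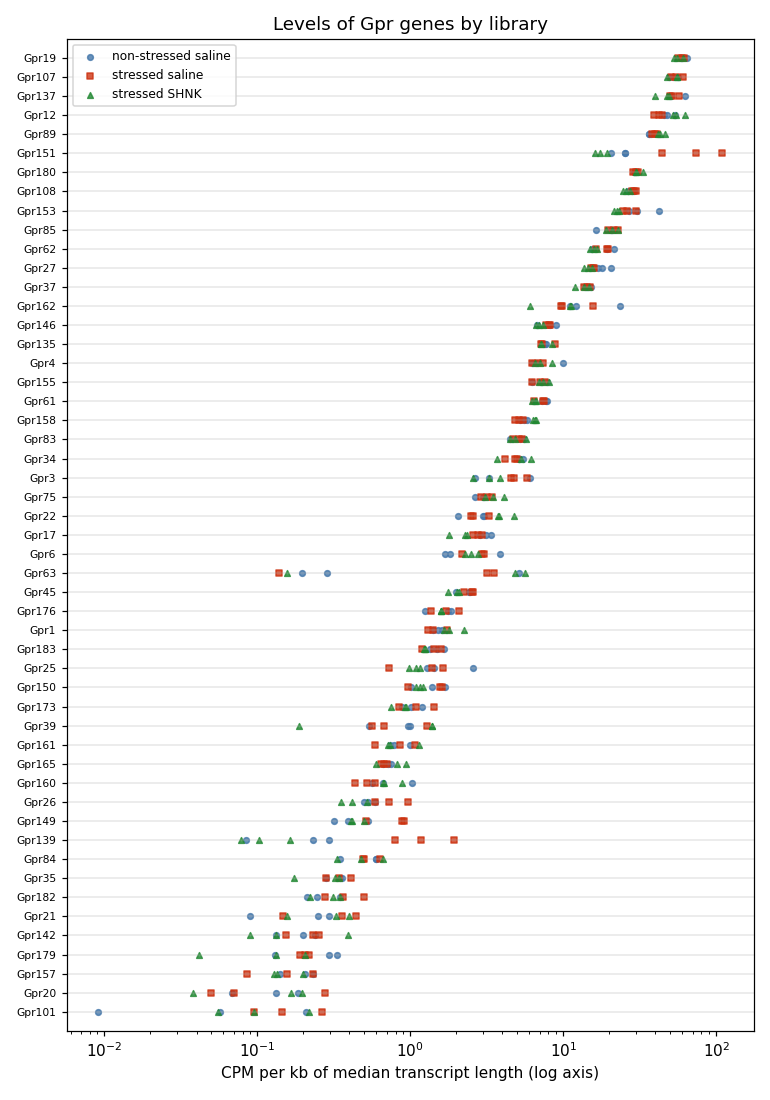
Level of the Gpr genes reported here with a known transcript length in every library, in CPM per kb of median transcript length on a log axis; each point is 1 library, coloured by group. Gpr151 and Gpr139 are set apart in stressed saline (squares), and the points of Gpr63 fall into a low and a high cluster that do not follow the groups.

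The 5 lowest were Gpr101 (0.128), Gpr20 (0.131), Gpr157 (0.168), Gpr179 (0.194) and Gpr142 (0.202 CPM per kb). Gpr179 is the retinal bipolar cell receptor of class C, and Gpr142 is the closest relative of Gpr139. Gpr4, a proton sensor of blood vessels, stood at 7.26 CPM per kb over all libraries, with 19.1, 18.1 and 28.8 CPM in non-stressed saline. Of the metabolite receptors the microglial lysophospholipid receptor Gpr34 was highest (5.00 CPM per kb), ahead of the oxysterol receptor Gpr183 (1.38), the fatty acid receptor Gpr84 (0.514) and Gpr35 (0.318). Gpr83, a receptor of forebrain neurons, stood at 5.03 CPM per kb by the median length and 4.24 by the longest. The prosaposin-linked receptor Gpr37, a protein of oligodendrocytes, stood at 14.1 and Gpr17 at 2.67 CPM per kb. Gpr158 was the highest of class C at 5.71, and the chemerin receptor Gpr1 stood at 1.62 CPM per kb.

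Coding sequence in 1 exon, which the symbol does not require, is more frequent among the Gpr genes than in the table. The coding sequence lies in 1 exon in every coding transcript of 30 of 54 (55.6%), against 969 of 14689 annotated coding genes in the table (6.60%). They are spread over 19 chromosomes, with 4 on X. In the annotation 19 of 54 share exonic bases with another gene and 10 with a protein-coding one, among them Gpr17 with Lims2 (188 bases, opposite strand) and Gpr137 with Bad (524 bases, opposite strand). The strandedness of the counting is not given in the sources used here, so reads from these pairs may not be told apart.

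The comparison of stressed saline with non-stressed saline asks what defeat did in saline mice. Of the 55 Gpr genes 2 rose, Gpr151 and Gpr139, and 0 fell, against 1.15% of all tested genes higher and 0.0165% lower. That is 3.64% of the Gpr genes in either direction against 1.17% of all tested genes. The median log2 fold change of the 55 was 0.01, beside -0.02 over all tested genes, and 31 (56.4%) were above 0 against 45.5%. At an unadjusted p under 0.05, 5 were higher and 4 lower (9.09% and 7.27%), against 6.08% and 3.37% of all tested genes. Both are known habenula genes, and both were named when the Gpr genes were proposed as a subject, so the count is a description.

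Gpr151 (chromosome 18, 42577881 to 42579652, minus strand, GRCm38.p6) encodes a receptor found on the axons and terminals of habenular neurons. It stood at 44.9, 36.6 and 44.7 CPM in non-stressed saline, 78.5, 194 and 130 CPM in stressed saline and 30.7, 28.6 and 34.1 CPM in SHNK. Every stressed saline library was above all 6 others, and replicate 2 of that group was the highest of all. The log2 fold change under stress was 1.67 ± 0.23 (standard error, edgeR adjusted p = 0.00532). It stayed between 1.31 and 1.95 in 17 alternative fits, all past the threshold. The highest edgeR adjusted p among them was 0.0476, without non-stressed saline replicate 2. SHNK was lower than stressed saline by a log2 fold change of -2.11 ± 0.23 (edgeR adjusted p = 0.000425), and the difference between SHNK and non-stressed saline did not pass (-0.44 ± 0.23, edgeR adjusted p = 0.327).

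Gpr139 (chromosome 7, 119140747 to 119184538, minus strand) encodes a receptor of medial habenular neurons that responds to aromatic amino acids and opposes opioid receptor signalling. It was scarcer per length than Gpr151 in each group, at 0.203 against 23.8 CPM per kb in non-stressed saline, 1.30 against 75.8 in stressed saline and 0.114 against 17.6 in SHNK. Its levels were 1.12, 0.407 and 1.42 CPM in non-stressed saline, 3.86, 9.38 and 5.66 CPM in stressed saline and 0.378, 0.497 and 0.787 CPM in SHNK. Again the stressed saline libraries were all above the other 6, in the order replicate 2, 3, 1 that Gpr151 also has. The log2 fold change was 2.65 ± 0.40 under stress (edgeR adjusted p = 0.00819) and -3.53 ± 0.43 in SHNK against stressed saline (edgeR adjusted p = 0.000647). All 17 alternatives were past the threshold in both. Under stress the highest edgeR adjusted p among them was 0.0466, without non-stressed saline replicate 1. SHNK against non-stressed saline gave -0.88 ± 0.45 (edgeR adjusted p = 0.324). Gpr142, the relative of Gpr139, was at 5 to 16 counts in every library and its log2 fold change under stress was 0.17 ± 0.54.

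The habenula list rose under stress and fell in SHNK against stressed saline, as both genes did. Its mean log2 CPM in stressed saline was 3.63, 5.19 and 4.46 in replicates 1, 2 and 3, which is the same order of libraries. In non-stressed saline it was 2.07, 2.04 and 3.02, and in SHNK 0.88, 0.47 and 0.57. Within SHNK the list was highest in replicate 1, where Gpr139 was lowest, and Gpr151 was highest in replicate 3. Against non-stressed saline the median log2 fold change of the list in SHNK was -1.78, beside -0.44 for Gpr151 and -0.88 for Gpr139. Among the genes of the list, log2 fold changes in SHNK against stressed saline ran from -0.52 for Nhlh2 to -7.44 for Tac2, the neurokinin B precursor, so the -2.11 of Gpr151 and the -3.53 of Gpr139 lie within that range. Tac2 went from 92.4 to 0.508 CPM between these groups, while Gpr151 went from 134 ± 58.1 to 31.1 ± 2.78 CPM (SD, n = 3). The part of habenular RNA in the 2 results was not tested.

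**Figure D2:**
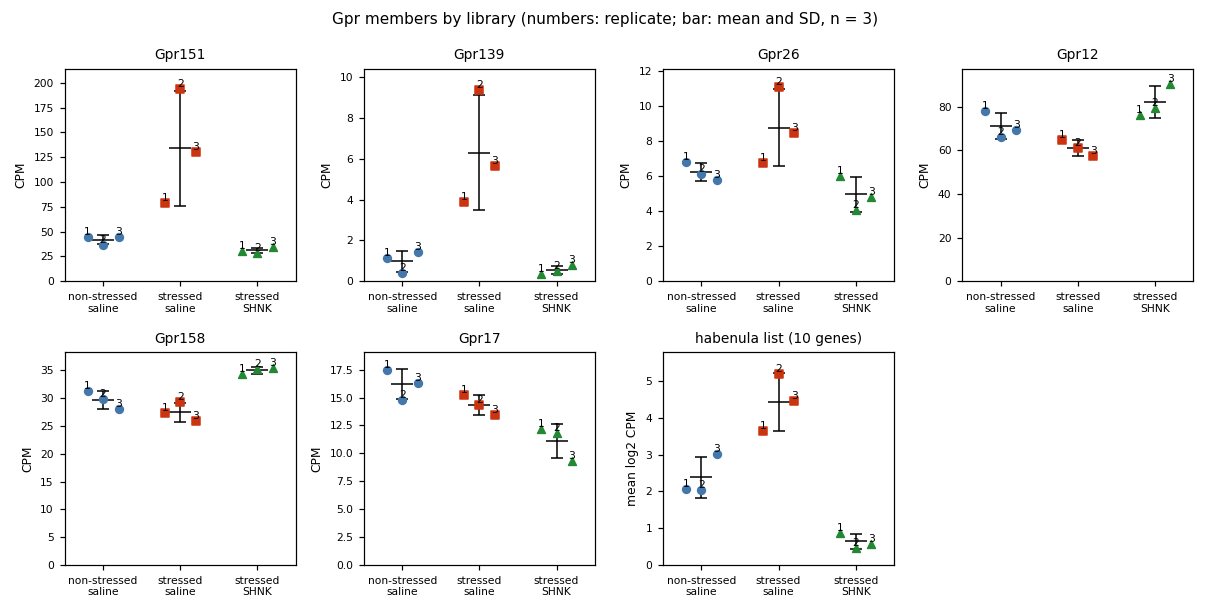
CPM of 6 Gpr genes in each library, and the mean log2 CPM of the habenula list, by group; numbers give the replicate, the bar the mean and SD of 3 libraries. Gpr151, Gpr139 and the habenula list are highest in replicate 2 of stressed saline, while Gpr12 is lowest in stressed saline and Gpr17 is lowest in SHNK.

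SHNK against stressed saline asks how the drug changed expression after defeat. Of the 55 genes 2 rose (Gpr12 and Gpr158) and 3 fell (Gpr151, Gpr139 and Gpr26), against 2.45% and 3.96% of all tested genes. The 9.09% of Gpr genes called in either direction stand beside 6.41% of all tested genes. Their median log2 fold change was -0.11, beside -0.01 over all tested genes, and 18 of the 55 (32.7%) were above 0 against 48.7% of all tested genes. At an unadjusted p under 0.05, 4 were higher and 7 lower (7.27% and 12.7%), against 10.6% and 12.8% of all tested genes. The 2 comparisons share the stressed saline libraries.

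Gpr26, a constitutively active receptor of the brain (chromosome 7, 131966162 to 131985633, plus strand), was at 6.80, 6.14 and 5.79 CPM in non-stressed saline, 6.75, 11.1 and 8.45 CPM in stressed saline and 6.03, 4.06 and 4.83 CPM in SHNK. The stressed saline libraries were above all SHNK libraries, and the lowest of them was within the non-stressed range. It fell in SHNK against stressed saline by 0.82 ± 0.20 on the log2 scale (edgeR adjusted p = 0.0277) and gave 0.49 ± 0.20 under stress (edgeR adjusted p = 0.401). By edgeR the fall missed the threshold when replicate 2 or 3 of stressed saline was removed (adjusted p = 0.120 and 0.0536), and likewise for replicate 2 or 3 of SHNK (0.130 and 0.122). Its highest library, replicate 2 of stressed saline, is also the highest on the habenula list, and that list's part was not tested.

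Gpr12 is a constitutively active receptor that raises cyclic AMP and is abundant in thalamic neurons (chromosome 5, 146582150 to 146586465, minus strand). It stood at 77.8, 66.2 and 69.1 CPM in non-stressed saline, 64.7, 61.1 and 57.4 CPM in stressed saline and 76.4, 79.6 and 90.3 CPM in SHNK. All 3 stressed saline libraries were below the other 6, by a margin of 0.032 in log2 CPM between the nearest libraries. The rise in SHNK against stressed saline was 0.43 ± 0.094 (edgeR adjusted p = 0.0183), and the difference under stress did not pass (-0.22 ± 0.094, edgeR adjusted p = 0.466). By edgeR the rise missed the threshold when replicate 2 or 3 of stressed saline was removed (adjusted p = 0.0679 and 0.0607), and likewise for replicate 2 or 3 of SHNK (0.0659 and 0.107). Gpr3 and Gpr6, the other members of its subfamily, gave -0.64 ± 0.27 and -0.12 ± 0.27 in SHNK against stressed saline and did not pass (edgeR adjusted p = 0.171 and 0.830). In the same comparison 2 of the 9 genes of glutamatergic paraventricular thalamus neurons rose and 0 fell. They were Ntng1 (0.339 ± 0.070, edgeR adjusted p = 0.0142) and Lef1 (0.395 ± 0.109, edgeR adjusted p = 0.0461). The median of the 9 was 0.12, and the part of this list in the results for Gpr12 and Gpr158 was not tested.

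Gpr158, a class C receptor that holds the RGS7 and G beta 5 complex at the membrane and is activated by glycine (chromosome 2, 21367567 to 21830544, plus strand), was at 31.3, 29.8 and 28.0 CPM in non-stressed saline, 27.4, 29.2 and 25.8 CPM in stressed saline and 34.3, 35.2 and 35.4 CPM in SHNK. Every SHNK library was above the other 6. The log2 fold change of SHNK against stressed saline was 0.35 ± 0.090 (edgeR adjusted p = 0.0362), lost without any 1 of the 6 libraries compared (edgeR adjusted p from 0.0544 to 0.134). Against non-stressed saline it was 0.23 ± 0.090 (edgeR adjusted p = 0.188). On a list of 26 measured ligands and partners of Gpr receptors 3 rose in this comparison and 0 fell. Of all tested genes 2.45% rose and 3.96% fell. On the list, 2 of the 3 encode RGS7 or a protein that binds it. They were Rgs7, which speeds the shut-off of G proteins (126 ± 3.54 to 174 ± 16.4 CPM, SD, n = 3; 0.47 ± 0.082, edgeR adjusted p = 0.00653), and its membrane anchor Rgs7bp (224 ± 25.2 to 324 ± 15.1 CPM; 0.53 ± 0.093, edgeR adjusted p = 0.00661). Gnb5, the G beta 5 gene, gave 0.22 ± 0.072 and did not pass (edgeR adjusted p = 0.0828). Over the list as a whole the median log2 fold change was -0.13. Gpr179, also of class C, gave -0.66 ± 0.45 (edgeR adjusted p = 0.406).

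The promoters of Gpr12 and Gpr158 are shown because these 2 genes rose together in SHNK against stressed saline. RefSeq windows for GRCm38.p6 cover 250 bases before to 50 after a start, 38 of the 55 genes have one, and Gpr139 and Gpr26 do not. Sequences run 5′ to 3′ on the gene's strand, and capitals mark matches to the GC box GGGCGG on either strand.
Gpr12, chr5:146585190-146585489, minus: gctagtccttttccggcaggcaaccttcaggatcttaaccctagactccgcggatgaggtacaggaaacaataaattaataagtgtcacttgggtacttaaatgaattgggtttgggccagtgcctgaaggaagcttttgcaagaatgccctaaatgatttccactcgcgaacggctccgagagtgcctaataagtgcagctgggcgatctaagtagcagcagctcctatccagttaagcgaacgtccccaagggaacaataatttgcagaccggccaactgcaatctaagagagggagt
Gpr12, chr5:146584355-146584654, minus: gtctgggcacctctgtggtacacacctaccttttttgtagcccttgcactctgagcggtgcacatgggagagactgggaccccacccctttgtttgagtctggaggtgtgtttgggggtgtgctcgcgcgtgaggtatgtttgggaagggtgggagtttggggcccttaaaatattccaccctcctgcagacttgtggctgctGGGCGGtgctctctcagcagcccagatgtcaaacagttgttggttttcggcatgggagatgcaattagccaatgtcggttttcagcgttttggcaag
Gpr158, chr2:21367317-21367616, plus: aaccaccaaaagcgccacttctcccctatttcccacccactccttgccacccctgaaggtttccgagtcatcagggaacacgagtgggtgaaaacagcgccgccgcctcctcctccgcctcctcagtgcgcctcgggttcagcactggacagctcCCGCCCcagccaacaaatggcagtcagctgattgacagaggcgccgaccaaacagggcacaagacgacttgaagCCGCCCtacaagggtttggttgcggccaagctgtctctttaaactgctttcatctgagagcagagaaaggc
The GC content of the 3 windows was 48.3%, 54.7% and 58.3%, beside a median of 52.7% over 32851 promoters. The GC box was found 0, 1 and 2 times in them, and in 35.7% of all promoters. Searched on both strands, the CRE core TGACG, the sequence bound by cyclic AMP response factors, and the TATA box TATAAA had 0 matches in each of the 3, against 20.8% and 13.6% of all promoters. These are matches of letters in 1 window and not binding sites.

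**Figure D3:**
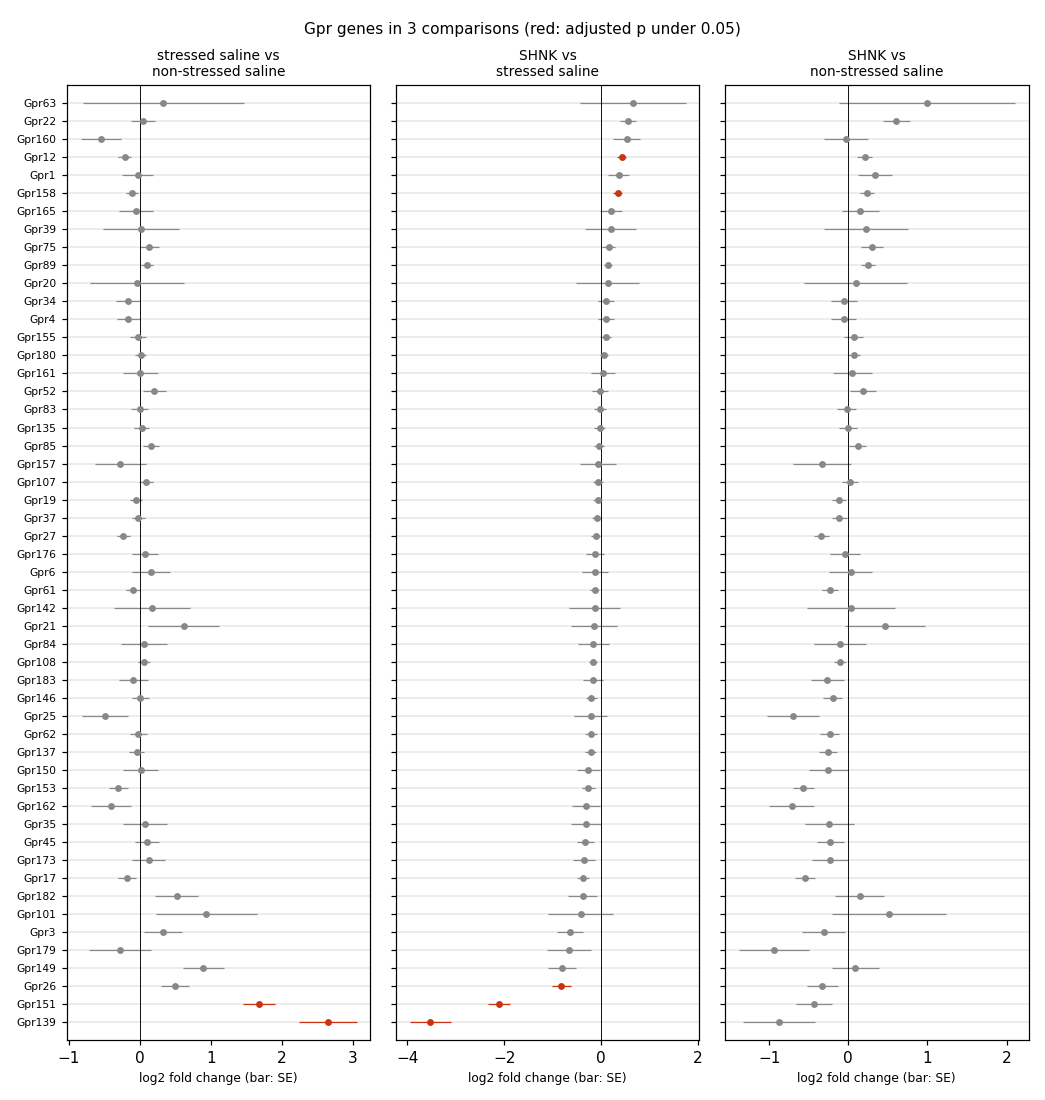
Log2 fold change with its standard error for the Gpr genes reported here in the 3 comparisons, in the order of SHNK against stressed saline; red marks an adjusted p under 0.05. Gpr151 and Gpr139 lie far to the right under stress and far to the left in SHNK against stressed saline, and no gene is red in SHNK against non-stressed saline.

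SHNK against non-stressed saline asks how treated defeated mice compared with mice that were never stressed. By edgeR 0 of the 55 Gpr genes passed, against 0.0055% of all tested genes. At an unadjusted p under 0.05 there were 12, 5 higher and 7 lower, which is 9.09% and 12.7% of the Gpr genes against 7.31% and 11% of all tested genes. A log2 fold change above 0 was seen in 23 of the 55 (41.8%), against 49.2% of all tested genes. DESeq2 called 5 Gpr genes, against 7.5% of all tested genes, and limma voom 0, against 0.0055%. Among the 5 were Gpr22 (higher) and Gpr153, Gpr17 and Gpr27 (lower). The edgeR count was 3 without non-stressed saline replicate 2, against 4.1% of all tested genes. Gpr153 and Gpr17 were among the 3 (edgeR adjusted p = 0.0246 and 0.0356).

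Gpr17 (chromosome 18, 31942999 to 31949890, minus strand) stood at 17.5, 14.8 and 16.3 CPM in non-stressed saline, 15.2, 14.3 and 13.4 CPM in stressed saline and 12.2, 11.8 and 9.34 CPM in SHNK. The SHNK libraries were below all 6 others, and the saline groups overlapped. No comparison passed by edgeR, with -0.18 ± 0.12 under stress (adjusted p = 0.791), -0.37 ± 0.13 in SHNK against stressed saline (adjusted p = 0.0994) and -0.55 ± 0.13 in SHNK against non-stressed saline (adjusted p = 0.0835). The F test over the 3 groups missed the threshold narrowly, and passed with limma voom and DESeq2. Of 7 other genes of new oligodendrocytes and 7 of oligodendrocyte precursors 0 passed in any comparison by edgeR. Of all tested genes 1.17%, 6.41% and 0.0055% passed in the same order of comparisons, so 0 is near those shares. In SHNK against non-stressed saline the median log2 fold changes of the 2 lists were -0.18 and -0.25, beside -0.005 over all tested genes. The part of these lists in the result for Gpr17 was not tested. Lims2, which overlaps Gpr17, gave -0.19 (edgeR adjusted p = 0.371) in SHNK against non-stressed saline. Gpr37 and Gpr62, receptors of the oligodendrocyte lineage, gave -0.11 ± 0.093 and -0.23 ± 0.12 in that comparison (edgeR adjusted p = 0.561 and 0.322).

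Sorted by whether stressed saline stood apart from both other groups, 2 of the 55 Gpr genes (3.64%) passed in both comparisons with opposite signs, Gpr151 and Gpr139, against 0.956% of all tested genes. Both were above, as were 0.94% of all tested genes. By library, stressed saline lay wholly outside the range of the other 6 for 3 Gpr genes (5.45%), above for Gpr151 and Gpr139 and below for Gpr12, against 7.15% of all tested genes (4.6% above and 2.54% below). The count by library is near the background. Just outside this condition lay Gpr26, Gpr149, Gpr160 and Gpr158, whose groups overlapped by 0.059 or less in log2 CPM. The F test called 4 (7.27%), against 4.88% of all tested genes, among them Gpr151, Gpr139 and Gpr12 with adjusted p = 0.000422, 0.000700 and 0.0427 by edgeR. Gpr12 no longer passed it when replicate 3 of non-stressed saline, any stressed saline library or replicate 2 or 3 of SHNK was removed. The count was 2 without stressed saline replicate 2 or SHNK replicate 2 or 3 (1.02%, 1.57% and 1.1% of all tested genes).

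In the F test 14 of the 55 had an unadjusted p under 0.05, and the 4 described next were singled out after their values were seen. Gpr153, the most abundant Gpr gene by CPM, was at 114, 101 and 159 CPM in non-stressed saline, 113, 97.8 and 93.1 CPM in stressed saline and 87.3, 84.5 and 81.3 CPM in SHNK, with every SHNK library lowest (-0.57 ± 0.14 against non-stressed saline, edgeR adjusted p = 0.0845). Non-stressed saline replicate 3 was the highest library, and without it the log2 fold change was -0.35 in SHNK and -0.09 in stressed saline, against -0.30 in stressed saline with it. Gpr22 was highest in SHNK, at 12.1, 11.8 and 15.1 CPM against 7.92, 10.4 and 8.11 CPM in stressed saline (0.56 ± 0.17, edgeR adjusted p = 0.0659). Without non-stressed saline replicate 3 that p was 0.0366 by edgeR, and DESeq2 gave 0.0159. Gpr27, of a family conserved among vertebrate brains, gave -0.34 ± 0.094 in SHNK against non-stressed saline (edgeR adjusted p = 0.0984). Gpr149 gave 0.89 ± 0.29 under stress (edgeR adjusted p = 0.218) from 0.783 to 1.30 CPM in non-stressed saline to 1.27 to 2.25 CPM in stressed saline.

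By edgeR the remaining groups showed 0 calls in any of the 3 comparisons, against 1.17%, 6.41% and 0.0055% of all tested genes. In groups this small, 0 calls are near those shares. The 4 metabolite receptors, 3 of them microglial, stayed between -0.31 and 0.11 in log2 fold change, and the 14 microglia genes had 0 calls and sums of 358 to 402 CPM. The 6 Golgi, lysosomal and other membrane proteins, most of them abundant, stayed between -0.26 and 0.25. The 3 members of the SREB family, Gpr27, Gpr85 and Gpr173, stayed between -0.35 and 0.15. DESeq2 called Gpr27 lower in SHNK against non-stressed saline (adjusted p = 0.0282). Standard errors of the uncalled genes ran from 0.080 to 1.13, so for the scarce ones a 2-fold difference could go uncalled.

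The 3 lists of related genes outside the symbol rule were read beside the 55. Of all tested genes 1.17% passed under stress, and 2.45% rose and 3.96% fell in SHNK against stressed saline. Of 27 measured relatives (adhesion, Lgr and Gprc5 receptors and the lettered Gpr genes) 0 passed under stress, and 3 rose and 3 fell in SHNK against stressed saline. Those with the smallest p were Adgrg1, an adhesion receptor of glia and progenitors (72.1 to 44.9 CPM; -0.68, edgeR adjusted p = 0.00547), Gpr137c (31.4 to 43.6 CPM; 0.47, edgeR adjusted p = 0.0126), Adgra3 (-0.66, edgeR adjusted p = 0.0161) and the astrocyte receptor Gpr37l1 (472 to 373 CPM; -0.34, edgeR adjusted p = 0.0320). The astrocyte list, 6 of 11 lower in the same comparison, moved with Gpr37l1 and its part was not tested. Of 21 tested former orphans that carry a ligand name now, 2 fell, the kisspeptin receptor Kiss1r (-0.51, edgeR adjusted p = 0.0233) and the neuropeptide FF receptor Npffr1 (-0.55, edgeR adjusted p = 0.0370). The third gene that rose on the list of partners was Napepld, which makes N-acylethanolamines (0.47, edgeR adjusted p = 0.0163). Of these 7 the call of Adgrg1 held without each library in turn. That of Gpr137c was lost without stressed saline replicate 2 or SHNK replicate 3 (edgeR adjusted p = 0.0623 and 0.0783), and that of Adgra3 without stressed saline replicate 2 or SHNK replicate 2 or 3 (0.0630 to 0.0932). Napepld lost its call without replicate 2 or 3 of either group (0.0517 to 0.0729). Gpr37l1 lost it without any of the 6 libraries compared but stressed saline replicate 2 (0.0617 to 0.133), and Kiss1r and Npffr1 without any but stressed saline replicate 1 (0.0606 to 0.0893 and 0.0633 to 0.136). Prosaposin (Psap), the proposed ligand of Gpr37, and Pcsk1n, the source of peptides proposed for Gpr83, did not pass (-0.14 and -0.35, edgeR adjusted p = 0.363 and 0.118).

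Some Gpr genes varied widely among libraries of the same group. Gpr63 had a 40.4-fold range over the 9 libraries, with 0.395, 7.05 and 0.270 CPM in non-stressed saline, 0.191, 4.37 and 4.84 CPM in stressed saline and 7.72, 6.66 and 0.217 CPM in SHNK. It was thus low in 4 libraries (8 to 18 counts) and high in 5 (172 to 367 counts), with both kinds in every group. The gene beside it, Ndufaf4, had 1517 to 3022 counts, and C230012O17Rik, which shares 218 exonic bases with Gpr63 on the opposite strand, 95 to 159, so neither showed that split. Gpr39 dropped to 0.358 CPM in SHNK replicate 2 beside 2.63 CPM in replicates 1 and 3, and it shares 1202 exonic bases with Lypd1. Gpr162 was at 64.8 CPM in non-stressed saline replicate 3 and 16.8 CPM in SHNK replicate 3, with 26.8 to 43.5 CPM elsewhere. The fold changes of these 3 have standard errors of 0.28 to 1.13.

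**Figure D4:**
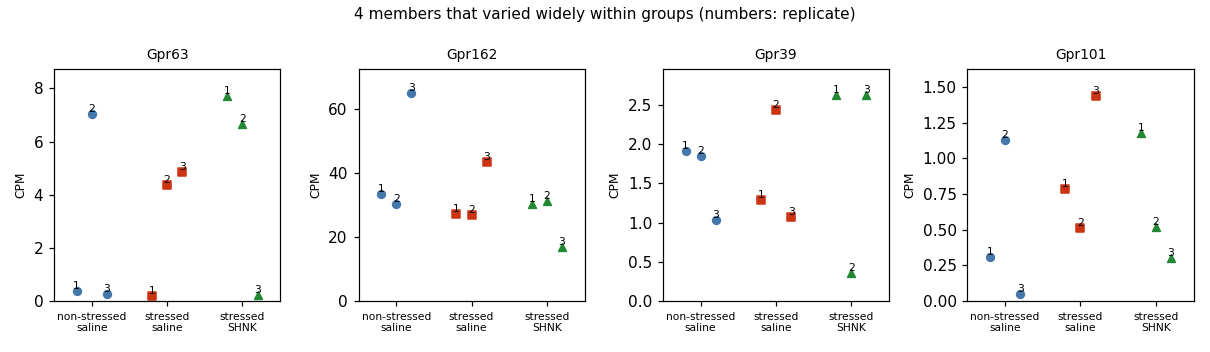
CPM of Gpr63, Gpr162, Gpr39 and Gpr101 in each library, by group; numbers give the replicate. Gpr63 is near 0 in 4 libraries and above 4 CPM in the other 5, with both kinds in each group, and Gpr101 ranges from 0.0491 to 1.44 CPM.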

How the data were processed

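The submitters' processing notes name the tools Trimmomatic 0.38, HISAT2 and StringTie and the builds GRCm38 and mm10, with no roles. Whether counting used strand is not given in the sources used here. Per the labels, 100 ng of total RNA entered each library, made with a SMARTer kit for low input and TruSeq construction. The values the authors deposited are raw counts, whole numbers per symbol.

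Counts were filtered with filterByExpr (minimum count 10, total 15), scaled by TMM and fitted over all 9 libraries in 1 quasi-likelihood model (edgeR 4.0.16, R 4.3.3). The p-values were adjusted by Benjamini-Hochberg over all 18194 genes and called under 0.05. For log2 CPM a prior count of 2 was added. DESeq2 1.42.0, other scalings and filters, a replicate block, the 2 compared groups alone and leaving out each library were alternatives. Another was limma 3.58.1 voom with a quality weight for each library, called limma voom in the text. Transcript lengths and overlaps came from GENCODE M21, and coordinates of all 55 genes from RefSeq GRCm38.p6. Replicates of a group differed beyond counting noise (chi-square per degree of freedom from 13.9 to 32.9). On simulated data of 18104 genes for stressed against non-stressed saline, 89% of 2-fold and 40.4% of 1.5-fold changes were recovered, with 3.73% false calls. The simulation gave all genes 1 common spread and held no differences in composition between libraries, so these rates may not hold for the real libraries.

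The Gpr genes and all lists were chosen with earlier results of these data known. Named genes were Gpr151, Gpr139 and Gpr17, all genes past the threshold, the 10 highest and 5 lowest per length, the highest of each role group and those with stressed saline outside the other 6. Of the lists, up to 4 genes with the smallest p per comparison were named. Lists not described in the text gave these counts in the 3 comparisons together. Blood had 4 higher, hippocampus 1 lower, endothelium 1 lower and choroid plexus 2 lower in SHNK against stressed saline. Choroid plexus had 1 higher under stress. Striatum and septum had 1 higher under stress and 1 lower in SHNK against stressed saline, and hypothalamus and oligodendrocyte had 0. Some of the 55 genes enter the counts and are not reported here by name.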

Additional observations from a re-analysis of the deposited data

How the results depend on the processing

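None of the log2 fold changes recomputed in the alternatives (called Gpr genes, Gpr151, Gpr139, Gpr17, those with an unadjusted F test p under 0.05 and the named related genes) took the opposite sign. Gpr151 and Gpr139 passed in all 17 under stress and in SHNK against stressed saline, and the counts of 2 under stress and of 2 apart from both groups held in every one. Other counts moved, and the cause was not tested. For SHNK against stressed saline 5 became 8 with limma voom and 8 at an adjusted p of 0.1, while the share of all tested genes went from 6.41% to 13.1% and 12%. With 1 library left out it was 2 to 6 (0.963% to 7.58% of all tested genes), and 2 without stressed saline replicate 2 or 3 or SHNK replicate 2 or 3 (2.01%, 3.93%, 1.30% and 0.963%). For SHNK against non-stressed saline 0 became 5 with DESeq2 (7.50% of all tested genes), 4 at an adjusted p of 0.1 (2.86%) and 0 to 3 with 1 library left out (3 without non-stressed saline replicate 2, 4.10%). The F test count of 4 (4.88%) became 11 with DESeq2 (13.4%), 10 with limma voom (10%), 10 at an adjusted p of 0.1 (9.9%) and 2 to 6 with 1 library left out (1.02% to 8.17%). Genes with stressed saline outside the other 6 went from 3 (7.15%) to 5 with upper-quartile scaling (6.84%) and 3 to 6 with 1 library left out (7.55% to 13.4%), where fewer libraries make the condition easier to meet. With the replicate number as a block the F test called 2 (3.76%) and SHNK against stressed saline 4 (4.83%; Gpr158 at an edgeR adjusted p of 0.0534), and the other counts were unchanged. Same-numbered libraries correlated by -0.100 to 0.106 in their deviations and 4 of 9 correlated best with their own number. The labels do not say what the number stands for, and these values cannot show whether such libraries share a batch. Depth limits the scarcest genes: 6 of the 55 had a count under 10 in at least 1 library.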
